A study of Homo sapiens with 12 samples.

Results

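The 40 genes described here are expressed in the G2 phase and mitosis of the cell cycle and run the machinery that divides a cell. They were taken by name, as a list of 40 gene symbols. The rule selects the genes by symbol and not by a measured value, but the list was drawn up with earlier results of these data known. All 40 were found on the array, by 76 probe sets, and each was read from the probe set with the highest mean over the 12 arrays. They were 40 of 19775 genes with a probe set of 1 gene symbol, and all 40 were among the 14649 genes bright enough to be tested (a mean over the 12 arrays above the 40th percentile of all probe sets).

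The cells were A549, an established human lung adenocarcinoma line. Before sorting they took up the DNA dye Hoechst (5 µg/ml, 90 min). Side population (SP) cells pump the dye out and stain weakly, and non-SP cells keep it. The 4 groups, of 3 arrays each, were untreated non-SP, untreated SP, anti-EpCAM treated non-SP and anti-EpCAM treated SP cells, where treatment was a monoclonal anti-mouse EpCAM antibody at 100 µg/ml for 48 h. EpCAM is an epithelial cell surface adhesion molecule. The labels call the 3 arrays of a group biological replicates, name no control antibody for the untreated cells, and mention reserpine, a blocker of the dye pump, without saying which samples received it. All 12 arrays came from 1 cell line, and bulk RNA of a sorted fraction cannot tell fewer dividing cells apart from less RNA of these genes in each cell.

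Values are log2 intensities, so a difference of 1 is a doubling. The SP and non-SP arrays of 1 treatment and 1 replicate number are called a pair here, and a fraction difference is SP minus non-SP within a pair. The arrays ranged from 2.43 to 14.95 with array medians of 5.59 to 6.24, and they give no read depth, so their number limits the precision. As a check of the sort label, ABCG2, the main dye pump of side population cells, was higher in SP cells in 6 of 6 pairs, by 0.49 ± 0.056 (SE; limma, adjusted p = 0.00375). The epithelial markers KRT7, KRT8, KRT18, KRT19, CDH1 and EPCAM were all above the filter. The alveolar or lung lineage genes NKX2-1, SFTPB and SFTPC were also above the filter, at medians of 6.10, 7.56 and 7.77. Of the markers of other cell types, the leukocyte gene PTPRC and the endothelial genes VWF and CDH5 were below it. The leukocyte genes CD3E and CD14, the endothelial gene PECAM1 and the fibroblast genes COL1A1, COL1A2, PDGFRB and DCN were above it, with COL1A1 the brightest at a median of 9.55 and the others at medians of 5.70 to 6.86.

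Entry into mitosis is driven by the kinase CDK1 with its cyclin partners. The spindle checkpoint then holds the cell until the chromosomes are attached, and a ubiquitin ligase, the anaphase-promoting complex (APC/C), ends mitosis by marking cyclin B and securin for destruction. These genes are expressed at their highest in G2 and M, and they serve as markers of dividing cells in tumours. Their promoters are known for 2 elements, the CCAAT box, bound by NF-Y, and the cell cycle genes homology region (CHR), bound by the DREAM and MuvB complexes that silence them in resting cells and help to switch them on in G2.

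The promoters of 4 members are shown as examples of windows that hold both elements. They belong to the 16 members with both, of 33 with a window. The sequences are the 250 bases before the transcription start from RefSeq (GRCh38.p14), written 5′ to 3′ on the strand of the gene. Capitals mark CCAAT or its reverse complement ATTGG, and the CHR motif TTTGAA or its reverse complement TTCAAA. CCNB2, the gene of cyclin B2, lies on the plus strand and its window is chr15:59104896-59105145. PLK1, the gene of polo-like kinase 1, lies on the plus strand with the window chr16:23678639-23678888. TOP2A, the gene of topoisomerase II alpha, lies on the minus strand with the window chr17:40417897-40418146. MKI67, the gene of the Ki-67 antigen, lies on the minus strand with the window chr10:128126424-128126673.
CCNB2: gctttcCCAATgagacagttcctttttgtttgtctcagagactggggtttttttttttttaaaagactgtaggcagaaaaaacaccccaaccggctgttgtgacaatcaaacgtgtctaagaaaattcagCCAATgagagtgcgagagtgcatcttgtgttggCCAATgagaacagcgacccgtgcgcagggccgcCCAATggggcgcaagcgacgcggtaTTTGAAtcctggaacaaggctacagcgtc
PLK1: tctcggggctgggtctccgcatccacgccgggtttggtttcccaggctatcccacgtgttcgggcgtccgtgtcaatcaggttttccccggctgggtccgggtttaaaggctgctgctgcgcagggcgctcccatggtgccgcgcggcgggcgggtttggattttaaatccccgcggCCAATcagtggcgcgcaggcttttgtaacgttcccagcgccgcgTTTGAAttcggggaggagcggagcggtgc
TOP2A: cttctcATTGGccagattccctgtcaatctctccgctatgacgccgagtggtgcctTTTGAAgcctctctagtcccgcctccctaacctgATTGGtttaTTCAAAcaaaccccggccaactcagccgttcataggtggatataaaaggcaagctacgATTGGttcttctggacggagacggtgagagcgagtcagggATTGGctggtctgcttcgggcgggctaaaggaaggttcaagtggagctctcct
MKI67: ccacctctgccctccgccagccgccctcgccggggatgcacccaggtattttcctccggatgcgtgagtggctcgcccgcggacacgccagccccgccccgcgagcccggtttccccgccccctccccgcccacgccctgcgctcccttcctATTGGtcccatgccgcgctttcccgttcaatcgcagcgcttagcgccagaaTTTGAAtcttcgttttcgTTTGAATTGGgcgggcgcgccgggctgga
The CCNB2 window held 4 CCAAT matches and 1 CHR match, which began 29 bases before the start. The PLK1 window held 1 CCAAT match at 73 bases and 1 CHR match at 29 bases before the start. In TOP2A there were 4 CCAAT and 2 CHR matches, and in MKI67 there were 2 of each, with a CHR match at 29 bases that overlaps the CCAAT match at 24 bases.

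Of the 40 members, 33 had a window in the RefSeq table. A CCAAT match on either strand was found in 27 of the 33 (81.82%), against 37% of 27305 genes. A CHR match was found in 18 (54.55%), against 16.05% of all genes, and both were found in 16 (48.48%), against 5.79%. RACGAP1, TPX2, AURKA, TTK, FOXM1, UBE2C and BIRC5 were not among the windows used. A match is a description of the letters and not a measured binding site.

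SP and non-SP cells carried most of these genes at nearly the same level. Over the 6 pairs, 1 of the 40 passed at an adjusted p under 0.05 (limma on the within-pair differences, Benjamini-Hochberg over all genes tested), where 2.47% of all genes tested passed (1.45% lower and 1.02% higher in SP cells). This was UBE2C, which was lower in SP cells by 0.34 ± 0.074 (SE), a fold of 0.788 (adjusted p = 0.0420). At an unadjusted p under 0.05 there were 2 members, UBE2C and BIRC5, where 16.2% of all genes tested reached that level. Thus 1 of 40 is near the array-wide share, and 2 of 40 is below it. The estimate was above 0 for 25 members (62.5%, against 52.4% of all genes tested) and below 0 for 15. The median of the 40 estimates was 0.02, against 0.0056 over all genes.

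The spread of these estimates was narrow. The median size of the 40 estimates was 0.046, against 0.063 over all genes, with a median SE of 0.058 against 0.061. The 95% interval of 33 members lay wholly within ±0.25, and that of 39 members lay within ±0.5. UBE2C was the exception, with an interval reaching -0.51, and PLK1 had the highest upper bound, at 0.31. For 39 of the 40 the estimate itself fell inside the middle 95% of estimates over all genes, which ran from -0.26 to 0.22.

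**Figure D1:**
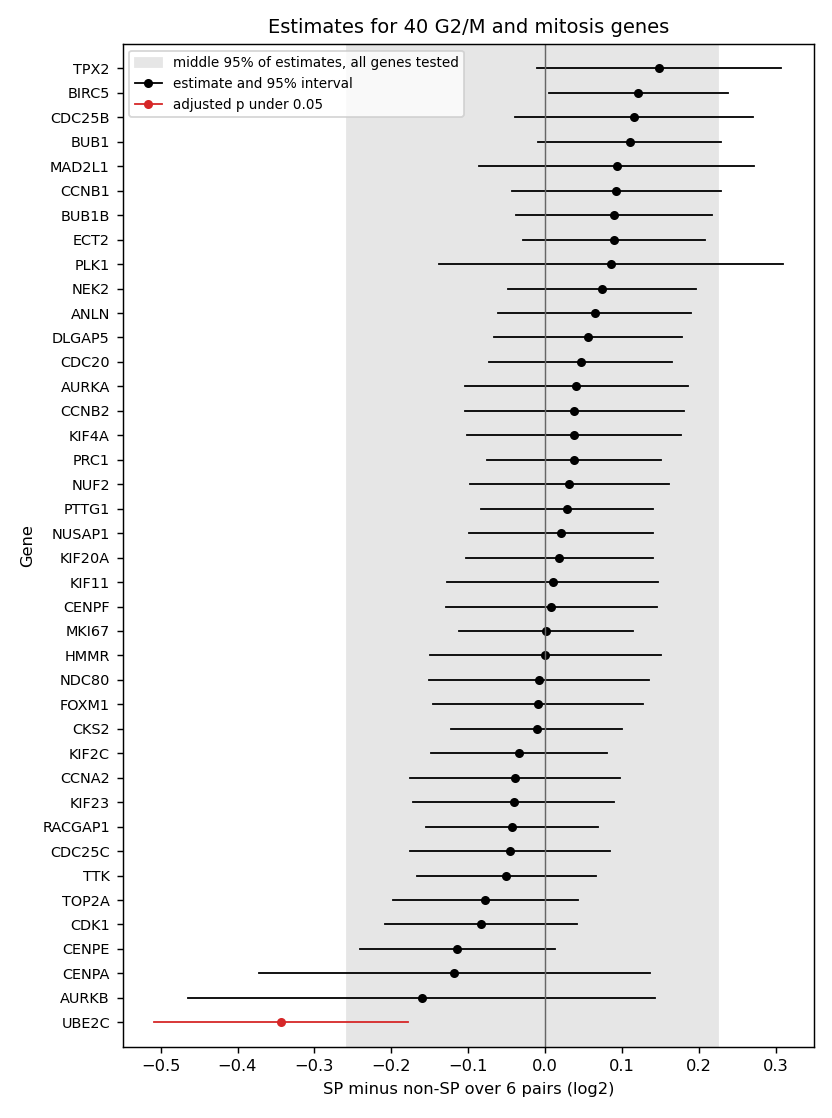
Estimated SP minus non-SP difference (horizontal axis, log2) of each of the 40 genes over the 6 pairs, with bars for the 95% interval and a grey band for the middle 95% of estimates over all genes tested. UBE2C at -0.34 is the 1 gene outside the band, and the other estimates run from -0.16 for AURKB to 0.15 for TPX2.

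The CDK1 switch was represented by 7 members: the kinase CDK1, its partners cyclin A2 (CCNA2), cyclin B1 (CCNB1) and cyclin B2 (CCNB2), the phosphatases CDC25B and CDC25C that activate it, and the CDK-binding subunit CKS2. None of the 7 passed in either direction, and their estimates ran from -0.084 for CDK1 to 0.12 for CDC25B. CDK1 read 12.20, 12.34 and 12.21 in the untreated non-SP arrays 1 to 3 and 12.18, 12.19 and 12.04 in the untreated SP arrays. In the anti-EpCAM arrays CDK1 read 12.29, 12.37 and 11.94 in non-SP cells and 12.10, 12.45 and 11.89 in SP cells. The untreated SP arrays were all below the untreated non-SP arrays by a small margin, while the treated arrays overlapped, and the estimate for CDK1 was -0.084 ± 0.056 (SE; limma, adjusted p = 0.507).

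CCNB1 read 12.25, 12.10 and 12.26 in untreated non-SP and 12.47, 12.22 and 12.35 in untreated SP arrays. Under anti-EpCAM CCNB1 read 12.44, 12.44 and 12.05 on the non-SP arrays and 12.27, 12.53 and 12.26 on the SP arrays. The fractions overlapped in both treatments, CCNB1 was higher in SP cells in 5 of 6 pairs, and its estimate was 0.092 ± 0.061 (adjusted p = 0.502). CCNB2 was the other member, beside CDK1, whose untreated arrays did not overlap, with SP at 11.83, 11.77 and 11.79 above non-SP at 11.74, 11.64 and 11.76. In the treated cells CCNB2 lay at 11.62, 11.99 and 11.56 in SP and 11.87, 11.998 and 11.34 in non-SP arrays, so the fractions overlapped there, and its estimate over the 6 pairs was 0.038 ± 0.064 (adjusted p = 0.823). Among the untreated arrays, 2 of 40 members thus showed no overlap between the fractions, 1 in each direction, against 3.56% of all genes tested.

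The phosphatase CDC25B was higher in SP cells in 5 of 6 pairs, with differences from -0.19 to 0.35 and an estimate of 0.12 ± 0.069 (adjusted p = 0.457). CCNA2 had an estimate of -0.039 and was higher in 3 of 6 pairs, with differences from -0.21 to 0.10. FOXM1, the transcription factor that works with MuvB to switch on many of these genes in G2, was higher in 3 of 6 pairs with an estimate of -0.0088 ± 0.061 (adjusted p = 0.965).

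None of the 4 mitotic kinases passed. AURKB, the catalytic subunit of the chromosomal passenger complex, read 9.17, 9.57 and 10.17 in untreated non-SP and 9.42, 9.51 and 10.00 in untreated SP arrays. In the treated cells AURKB read 10.04, 10.25 and 9.78 on the non-SP arrays and 9.25, 9.60 and 10.23 on the SP arrays. Its treated pairs therefore went -0.78, -0.65 and 0.45, the groups overlapped in both treatments, and its estimate of -0.16 ± 0.137 (adjusted p = 0.618) had the largest error of the 40.

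PLK1, the polo-like kinase of mitotic entry and spindle assembly, read 7.35, 8.14 and 8.42 in untreated non-SP and 7.84, 8.23 and 8.45 in untreated SP arrays. Under anti-EpCAM it read 7.70, 8.56 and 8.58 on the non-SP arrays and 8.10, 8.49 and 8.14 on the SP arrays. The first pair of each treatment was higher in SP cells by 0.49 and 0.40 and the third treated pair was lower by 0.44, so the estimate was 0.086 ± 0.101 (adjusted p = 0.731). AURKA, the spindle pole kinase, and NEK2, the kinase of centrosome separation, were each higher in 5 of 6 pairs, with estimates of 0.041 and 0.073.

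Of the 4 members of the spindle checkpoint, 0 passed. The checkpoint kinase BUB1 had an estimate of 0.11 ± 0.054 (adjusted p = 0.348) and was higher in SP cells in 5 of 6 pairs, and its relative BUB1B had 0.090 and 5 of 6 pairs. MAD2L1, the gene of the inhibitor MAD2 that holds CDC20 in check, went 0.15, 0.06 and 0.00 in the untreated pairs and -0.24, 0.11 and 0.46 in the treated pairs, with an estimate of 0.093 ± 0.081 (adjusted p = 0.624). The kinase TTK was higher in 2 of 6 pairs, with an estimate of -0.050 (adjusted p = 0.687).

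The member that passed belongs to the 3 genes of the APC/C and anaphase onset. UBE2C, the ubiquitin-conjugating enzyme that works with the APC/C, read 11.74, 12.07 and 11.68 in untreated non-SP and 11.65, 11.73 and 11.25 in untreated SP arrays. In the treated cells UBE2C read 11.92, 11.995 and 11.80 on the non-SP arrays and 11.77, 11.31 and 11.44 on the SP arrays. SP cells were lower in 6 of 6 pairs, and UBE2C was the 1 member of 40 with the same sign in every pair, where 10.7% of all genes tested had 1 sign. The untreated arrays overlapped only in that SP array 2 (11.73) lay above non-SP array 3 (11.68), while the treated SP arrays were all below the treated non-SP arrays. Among the treated arrays this made 1 of 40 members with no overlap, against 1.43% of all genes tested.

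UBE2C was read by a single probe set, so no other probe set could be set beside it. Its estimate kept its sign in all 16 alternative settings, from -0.48 to -0.27, but its adjusted p was under 0.05 in only 4 of them. Leaving out untreated pair 1, 2 or 3 raised its adjusted p in limma to 0.0562, 0.109 or 0.178. Leaving out treated pair 2 or 3 raised it to 0.145 or 0.0806, and with 12 independent arrays in place of pairs it was 1.00. The call for UBE2C was thus lost on leaving out any pair except anti-EpCAM pair 1, and without the pairing. It was also lost in settings that kept all pairs. There the adjusted p in limma was 0.0526 without the filter and 0.0506 with the mean of a gene's probe sets. With an intensity trend and robust spread it was 0.139. The cause of these losses was not tested.

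The other members of that group had small estimates. CDC20, the activator that directs the APC/C to its mitotic targets, had an estimate of 0.046 ± 0.054 (adjusted p = 0.729). PTTG1, the gene of securin, which restrains the enzyme that splits sister chromatids, had 0.028 ± 0.050 (adjusted p = 0.832). Each of these was higher in SP cells in 5 of 6 pairs.

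**Figure D2:**
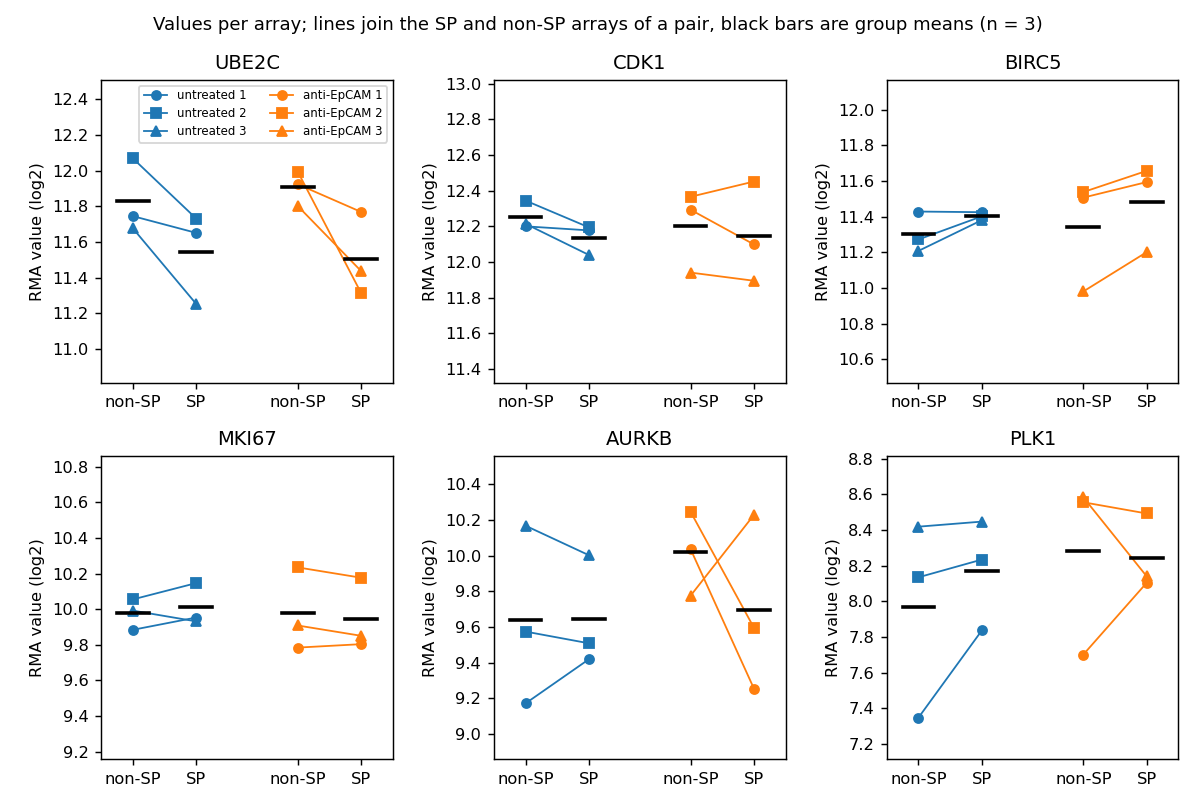
RMA value (vertical axis, log2) of 6 genes on each of the 12 arrays, with lines joining the SP and non-SP arrays of a pair, untreated pairs in blue and anti-EpCAM pairs in orange, and black bars for the means of 3 arrays. All 6 lines of UBE2C slope down from non-SP to SP, BIRC5 slopes up in 5 of 6, MKI67 is nearly level, and the treated lines of AURKB and PLK1 cross. Each panel has its own range of values but the same height in log2 units.

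The centromere and kinetochore genes, 6 in number, gave 0 that passed. BIRC5, survivin, the partner of AURKB in the chromosomal passenger complex, read 11.43, 11.27 and 11.21 in untreated non-SP and 11.43, 11.40 and 11.38 in untreated SP arrays. Under anti-EpCAM BIRC5 read 11.51, 11.54 and 10.98 on the non-SP arrays and 11.59, 11.66 and 11.20 on the SP arrays. The fractions overlapped in both treatments although 5 of 6 pairs were higher in SP cells, and the estimate of 0.12 ± 0.052 had an unadjusted p of 0.043 and an adjusted p of 0.287 (limma).

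CENPA, the histone variant that marks the centromere, went 0.22, -0.04 and -0.16 in the untreated pairs and -0.56, -0.55 and 0.39 in the treated pairs, the same run of signs as AURKB. Its estimate was -0.12 ± 0.114 (adjusted p = 0.665). CENPE, the kinetochore motor, was lower in SP cells in 5 of 6 pairs with an estimate of -0.11 ± 0.057 (adjusted p = 0.360). The outer kinetochore genes NDC80 and NUF2 and the kinetochore gene CENPF had estimates of -0.0080, 0.032 and 0.0082.

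Of the 10 spindle motors and microtubule binders, 0 passed and 8 had an estimate above 0, where 52.4% of all genes tested did. TPX2, which activates AURKA on the spindle, had the highest estimate of all 40 members, 0.15 ± 0.071 (adjusted p = 0.344), and was higher in SP cells in 5 of 6 pairs, with differences from -0.11 to 0.41. The kinesins KIF11, KIF20A, KIF23, KIF2C and KIF4A lay between -0.041 and 0.037, and NUSAP1, PRC1, HMMR and DLGAP5, which bind or bundle spindle microtubules, lay between 0.00022 and 0.056.

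Among the cytokinesis genes, ECT2, the exchange factor that activates RhoA at the cleavage furrow, had 0.089 ± 0.053 (adjusted p = 0.456). Its binding partner RACGAP1 had -0.043 ± 0.051 (adjusted p = 0.731), and the furrow scaffold ANLN had 0.064. ECT2 and ANLN were each higher in SP cells in 5 of 6 pairs and RACGAP1 in 2.

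The markers most used for dividing cells did not pass. MKI67, the gene of the Ki-67 antigen that coats mitotic chromosomes, read 9.88, 10.05 and 9.99 in untreated non-SP and 9.95, 10.15 and 9.93 in untreated SP arrays. Under anti-EpCAM MKI67 read 9.78, 10.23 and 9.91 on the non-SP arrays and 9.80, 10.18 and 9.85 on the SP arrays. Its pairs differed by -0.06 to 0.09, the fractions overlapped in both treatments, and its 95% interval ran from -0.11 to 0.11. TOP2A, which untangles sister DNA before division, was lower in SP cells in 5 of 6 pairs, with an estimate of -0.078 ± 0.054 and an interval from -0.20 to 0.042 (adjusted p = 0.523).

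Read pair by pair, the mean of the 40 genes was above 0 in 1 pair and slightly below 0 in the other 5. The mean difference of the 40 was 0.14, -0.012 and -0.013 in untreated pairs 1 to 3 and -0.017, -0.023 and -0.031 in anti-EpCAM pairs 1 to 3, with a mean of 0.0068 ± 0.064 (SD, n = 6 pairs). In untreated pair 1, 35 of the 40 were higher in SP cells, where 66.0% of all genes tested were higher in that pair. In untreated pairs 2 and 3 the count was 20 and 21, and in anti-EpCAM pairs 1 to 3 it was 23, 22 and 13, where the share of all genes higher ran from 39.5% to 52.4%. Without untreated pair 1 the mean of the 40 was -0.018, with 20 of 40 estimates above 0.

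The spread of the members within a pair differed by treatment in value. The SD over the 40 differences was 0.11, 0.10 and 0.12 in the untreated pairs and 0.21, 0.20 and 0.22 in the anti-EpCAM pairs, while over all genes it was 0.19, 0.14 and 0.20 and then 0.20, 0.23 and 0.22. No test was made of that difference. In the treated pairs the lowest members were AURKB, UBE2C and PLK1 and the highest were PLK1, NUF2 and MAD2L1, in pairs 1 to 3.

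**Figure D3:**
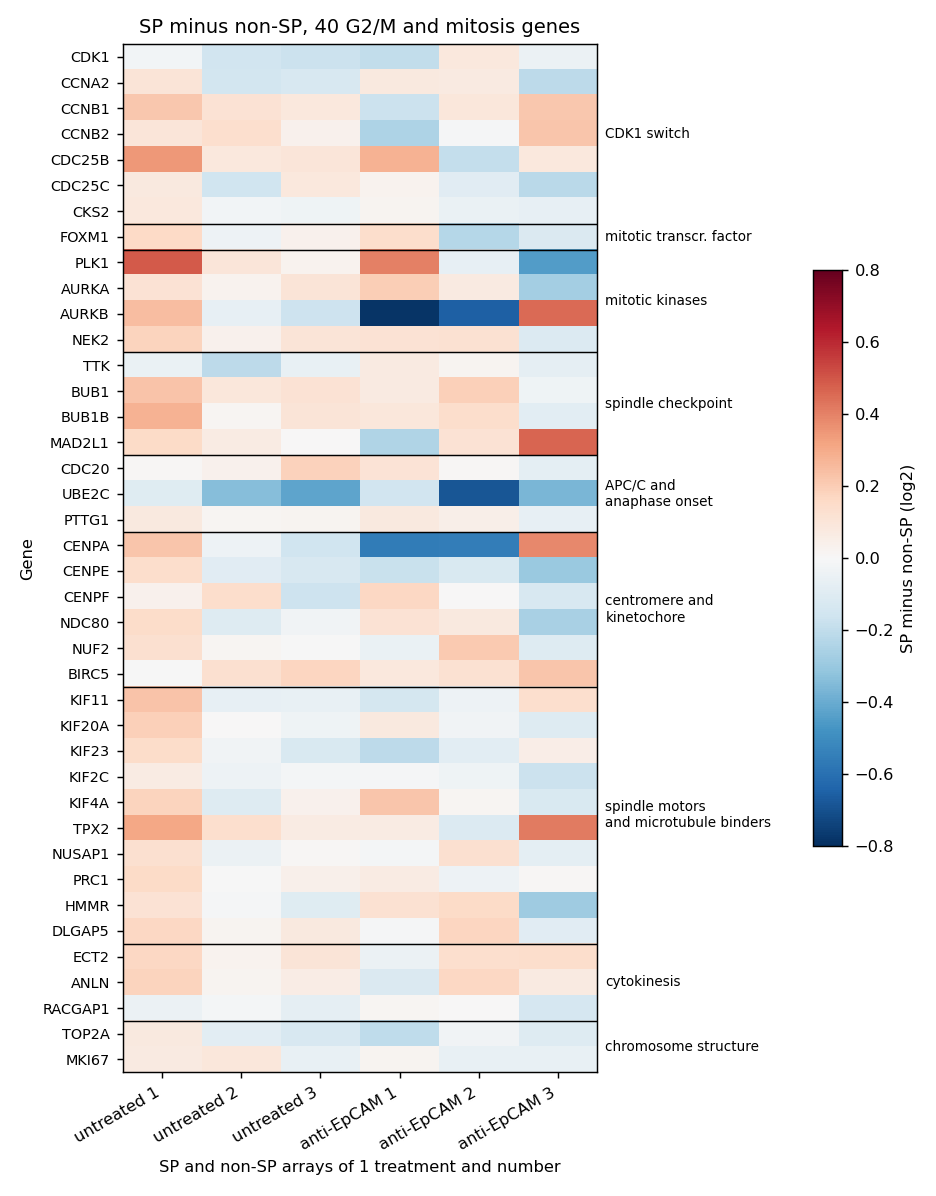
SP minus non-SP difference (colour, log2, blue for lower and red for higher in SP cells) of the 40 genes, in rows grouped by role, in each of the 6 pairs. UBE2C is blue in every column, untreated pair 1 is red for 35 of 40 genes, and AURKB and CENPA turn from blue in anti-EpCAM pairs 1 and 2 to red in pair 3.

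Each treatment was then taken alone. In the untreated pairs 0 of 40 members passed, where 0.0956% of all genes tested did (14 genes, with 0.0273% higher and 0.0683% lower), and 1 member, UBE2C, had an unadjusted p under 0.05, against 8.88% of genes. Estimates were above 0 for 32 members, 80% of them against 57.3% of all genes, with a median of 0.037 against 0.018. Untreated pair 1 carried this count: without it 19 members were above 0, with a median of -0.0081 against -0.0018 over all genes, and after quantile normalization of all pairs 25 were above 0. The highest were PLK1 at 0.21 ± 0.142, CDC25B at 0.18, TPX2 at 0.17, BUB1 at 0.14 and CCNB1 at 0.14, and the lowest were UBE2C at -0.29 ± 0.105, CDK1 at -0.12, TTK at -0.11, CCNA2 at -0.057 and RACGAP1 at -0.047.

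In the antibody-treated pairs 0 of 40 passed, where 0.246% of all genes tested did (36 genes, with 0.0546% higher and 0.191% lower). At an unadjusted p under 0.05 there were 2 members, UBE2C at -0.40 ± 0.105 and CENPE at -0.20 ± 0.081, against 10.5% of genes. Estimates were above 0 for 20 members, 50% of them against 48.7% of all genes, and the median was -0.00083 against -0.0040 over all genes. AURKB had -0.33 ± 0.194 and CENPA -0.24 ± 0.162, both with intervals that span 0. The highest estimates were those of BIRC5 at 0.14, TPX2 at 0.12, MAD2L1 at 0.11 and ECT2 at 0.079.

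The difference between the treatments in the SP effect was tested as an interaction. Of the 40 members 0 passed and 0 had an unadjusted p under 0.05, where 0% of all genes tested passed and 1.7% reached the unadjusted level (249 genes, limma). The interaction was below 0, meaning a lower SP effect under the antibody, for 32 members, and the median was -0.061 against -0.026 over all genes, of which 38.5% were above 0 against 20% of the members. Without untreated pair 1 the members' median was -0.0063 against -0.0057 over all genes, with 15 above 0. The members' median was -0.027 without anti-EpCAM pair 3 (-0.00065 over all genes), with 14 above 0. Without anti-EpCAM pairs 1 and 3 it was -0.012 (0.0018 over all genes), with 19 above 0. On leaving out untreated pair 2 or 3 it was -0.082 or -0.069 (-0.045 or -0.031 over all genes). On leaving out anti-EpCAM pair 1 or 2 it was -0.066 or -0.070 (-0.031 or -0.042 over all genes). For UBE2C the interaction was -0.12 ± 0.149, with an interval from -0.44 to 0.22. The widest interval was that of AURKB, with a lower bound of -0.94, and 37 of the 40 intervals lay within ±0.5.

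The antibody contrast asked whether treated cells carried these genes at another level. In non-SP cells, in SP cells and over both fractions, 0 of 40 members passed, where 0% of all genes tested passed. At an unadjusted p under 0.05 there were 0 members in each, against 0.41%, 0.43% and 0.389% of genes. In non-SP cells the largest estimates were CENPA at 0.39 ± 0.313, AURKB at 0.38 ± 0.277 and PLK1 at 0.31 ± 0.352. The median SE of the members was 0.173 in non-SP and 0.178 in SP cells, above the median size of their estimates (0.071 and 0.043), and intervals reached from -0.72 for CDC20 to 1.14 for PLK1 in non-SP cells.

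The sign of the antibody estimates depended on the scaling. In non-SP cells 32 of the 40 had an estimate above 0 as deposited, 20 after quantile normalization of the 12 arrays and 12 after setting each array to the same median. In SP cells the counts were 28, 12 and 3. As deposited, 79.96% of all genes tested were above 0 in non-SP cells and 75.25% in SP cells. The counts of 32 and 28 of 40 are thus near the array-wide shares. The median of all genes moved with the counts, from 0.105 as deposited to 0.022 and -0.021 in non-SP cells. The members' median minus that of all genes was -0.035, -0.021 and -0.035 in non-SP cells under these scalings. In SP cells it was -0.062, -0.032 and -0.062. Without anti-EpCAM replicate 3 the members' median was instead above that of all genes, by 0.078 in non-SP and 0.049 in SP cells. Without untreated replicate 1 the difference was -4e-05 in non-SP and 0.0040 in SP cells. No direction for an antibody effect on these genes is given, because the sign depended on the scaling and on the replicates kept.

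The genes also varied from pair to pair. The SDs of the 6 pair means, each the mean of the SP and non-SP array, ran from 0.060 for PTTG1 to 0.37 for CDC20, with a median of 0.15. CDC20 had pair means of 11.61, 11.32 and 10.82 in the untreated pairs and 11.52, 11.29 and 10.71 in the anti-EpCAM pairs. It was highest in replicate 1 and lowest in replicate 3 of both treatments, while its SP and non-SP arrays of a pair differed by -0.08 to 0.19. The labels do not say whether a replicate number of both treatments marks a shared culture or day.

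The rest of the division programme was read from lists of related genes. Of 72 other mitosis genes tested, 1 was higher in SP cells and 0 were lower at an adjusted p under 0.05, 6 had an unadjusted p under 0.05, and the median was 0.026. Both counts are below the shares over all genes tested, 2.47% and 16.2%. The gene that passed was WEE1, the kinase that holds CDK1 inactive, at 0.35 ± 0.064 (adjusted p = 0.0216). WEE1 was higher in SP cells by 0.33, 0.16 and 0.61 in the untreated pairs and by 0.30, 0.35 and 0.36 in the treated pairs, and its second probe set was higher in 5 of 6 pairs. In 16 alternatives its estimate ran from 0.29 to 0.41, and it passed in 8.

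WEE1 missed the threshold on leaving out untreated pair 1 or 3 (adjusted p of 0.0568 or 0.0872 in limma). It also missed it on leaving out treated pair 2 or 3 (0.0939 or 0.0543), and with 12 independent arrays its adjusted p was 1. With all pairs kept, the adjusted p of WEE1 in limma was 0.0839 with the mean of its probe sets. With an intensity trend and robust spread it was 0.114. Of 16 tested genes of the APC/C, 0 passed, and CDC27, one of its core subunits, had 0.14 ± 0.058 with 6 of 6 pairs higher (adjusted p = 0.270).

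Among 17 genes of the DREAM and MuvB complexes and their partners, 0 passed (2.47% of all genes tested) and 7 had an unadjusted p under 0.05 (16.2% of all genes), with a median estimate of 0.11. Of these, 3 are given here, chosen after their values were seen. The MuvB subunit LIN54, which binds the CHR, had 0.27 ± 0.068 (adjusted p = 0.0701). LIN52 had 0.23 ± 0.058 (adjusted p = 0.0752), both with 6 of 6 pairs higher in SP cells, and LIN37 had -0.21 ± 0.050 (adjusted p = 0.0596) with 6 of 6 lower. Of 10 tested CDK inhibitors and genes of resting cells, 0 passed and 3 had an unadjusted p under 0.05, again against 16.2% of all genes, and CCNG2, the gene of cyclin G2, was at -0.25 ± 0.063 (adjusted p = 0.0739) with 0 of 6 pairs higher.

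Genes of the preceding phase of the cycle gave no call either. Of 39 tested G1/S and DNA replication genes, 0 passed, 15 had an unadjusted p under 0.05 (16.2% of all genes tested) and 35 had an estimate above 0 (52.4% of all genes), with a median of 0.12 against 0.02 for the 40 mitosis genes. The mean of the replication genes was 0.031, 0.065 and 0.23 in the untreated pairs and -0.0065, 0.14 and 0.21 in the treated pairs. The replication genes were nearest to 0 in pair 1 of both treatments, and untreated pair 1 was the pair in which the mitosis genes were highest. The difference between the lists was not tested.

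**Figure D4:**
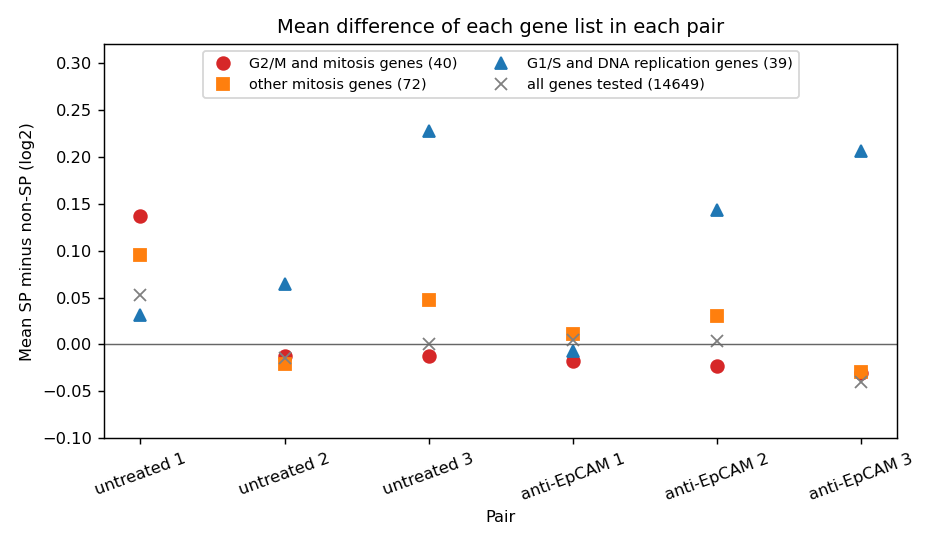
Mean SP minus non-SP difference (vertical axis, log2) of the 40 G2/M and mitosis genes, 72 other mitosis genes, 39 G1/S and DNA replication genes and all genes tested, in each of the 6 pairs (horizontal axis). The 40 G2/M and mitosis genes lie within 0.031 of 0 in every pair but untreated pair 1, at 0.14. The replication genes reach 0.23 in untreated pair 3 and 0.21 in anti-EpCAM pair 3.

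A measure of RNA quality differed most between SP and non-SP cells in anti-EpCAM pairs 1 and 3. The 3′ minus 5′ signal of the ACTB control probe sets, in log2, which is larger where RNA is shorter, differed between SP and non-SP by -0.25, -0.26 and -0.36 in the untreated pairs and by 1.86, 0.27 and -2.09 in anti-EpCAM pairs 1 to 3. Of the 40 members, 9 were lower in SP cells in anti-EpCAM pair 1 and higher in pair 3, among them AURKB, CENPA and MAD2L1. The opposite way went 19. Over all genes tested these shares were 21.0% and 33.9%. The part of RNA quality in the single values was not tested. With the ACTB difference as a covariate UBE2C had -0.34 and an adjusted p of 0.0509, and with the GAPDH difference -0.34 and 0.0685.

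The 30 further probe sets of the members above the filter, which belong to 20 genes, ranged more widely. Of these 30, 13 were lower in SP cells in anti-EpCAM pair 1 and higher in pair 3, 10 went the opposite way and 7 had 1 sign in both. Their range over the 12 arrays had a median of 1.13, against 0.53 for the 40 chosen probe sets. By the choice they are dimmer than the chosen probe set of the gene. The further probe sets of genes outside the list were not examined, so these counts and ranges have no array-wide share beside them. Of the 10 that went the opposite way, the third CCNB2 probe set went 0.19 and -0.41 and the second CCNB1 probe set 0.12 and -0.31. The second MAD2L1 probe set went -1.92 in pair 1 and 1.63 in pair 3, and the second NEK2 probe set went -1.35 and 1.76. Another BIRC5 probe set went -0.93 and 1.25, where the chosen one went 0.09 and 0.22. The second TOP2A probe set ranged from 9.04 to 12.81 over the 12 arrays, where the chosen one ranged from 12.10 to 12.63. Over the 6 pairs, 21 of the 30 had the same sign as the chosen probe set of the gene and 9 had the opposite sign.

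**Figure D5:**
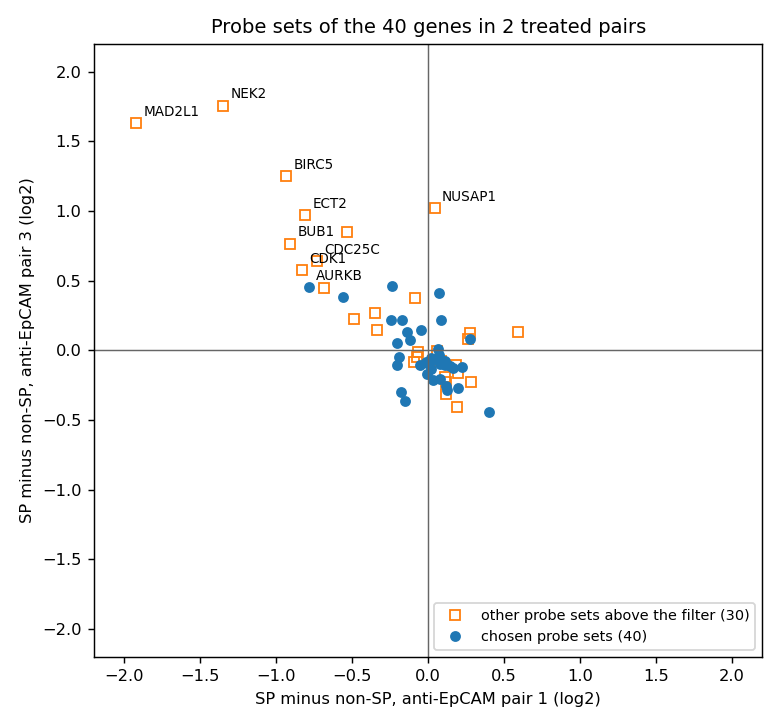
SP minus non-SP difference (log2) of each probe set of the 40 genes in anti-EpCAM pair 1 (horizontal axis) and pair 3 (vertical axis), with filled circles for the 40 chosen probe sets and open squares for 30 others above the filter. A square each for MAD2L1, NEK2 and BIRC5 lies far to the upper left. These run from -1.92 to -0.93 in pair 1 and from 1.25 to 1.76 in pair 3. The circles stay between -0.78 and 0.46.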

How the data were processed

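RNA of 12 sorted A549 samples was measured on an Affymetrix expression array. The deposited values are log2 intensities summarised by the authors with RMA, per the submitters' processing notes; the RMA version and the set of arrays normalised together are not given in the sources used here. Sorted values differed on average by 0.0093 to 0.0213 between the arrays of a pair and by 0.0461 to 0.524 between other arrays. Of 54613 probe sets besides 62 controls, 41091 carried 1 gene symbol in the probe table, 1801 several and 11721 had no entry; only the first were used. A gene was its probe set with the highest mean, kept where that mean was above the 40th percentile (5.39).

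Fraction tests used limma 3.58.1 in R 4.3.3 on the 6 within-pair differences with the treatment of the pair as a term (4 residual degrees of freedom before moderation). Antibody tests used limma group means over the 6 arrays of a fraction or over pair means. All p-values were adjusted by Benjamini-Hochberg over 14649 genes, with a threshold of 0.05. The pairs come from the shared labels: deviations from the group means of same-numbered SP and non-SP arrays correlated at 0.62 to 0.89, above 0.1 in each of the 6 pairs. Whether both arrays of a pair came from 1 sort is not stated, so p-values measure only the spread between these samples. The paired fit was tested on simulated data.

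The member list uses gene names alone, but it and the other gene lists were drawn up with earlier results of these data known. Members were named with values if they passed, were among the 5 highest or 5 lowest estimates of a fraction comparison, had 1 sign in all pairs, or were MKI67, TOP2A, CDK1 or CCNB1; genes of the pathway lists were named if they passed. The other members are given outside that rule, to account for all 40. Of these CCNB2, CDC20 and PTTG1 were singled out after their values were seen, as were CDC27, LIN37, LIN52, LIN54, CCNG2 and the further probe sets. Promoter windows were searched on both strands in the RefSeq table. Alternatives covered normalization, the filter, the choice of probe set, variance moderation, the pairing, left-out pairs and RNA quality.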

Additional observations from a re-analysis of the deposited data

Results flagged for a closer look

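Of 41 sets of 6 pair differences examined for a single distant value, the 40 genes and their mean, 3 held one by Dixon's test at the 95% level, and chance alone flags some groups at that level. The mean of the 40 members in untreated pair 1, 0.137, stood apart from the other 5 pairs, with a gap of 0.887 of the whole range. CCNB1 in anti-EpCAM pair 1 was -0.17, with a gap of 0.665 of the range, and AURKA in anti-EpCAM pair 3 was -0.27, with a gap of 0.641.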

How the results depend on the processing

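The count of 1 member that passed over the 6 pairs fell to 0 in 12 of 16 alternatives and stayed at 1, with UBE2C, in 4: quantile normalization, equal array medians, the pair as a random block and without anti-EpCAM pair 1. The count was 0 without a filter, with the mean of a gene's probe sets, with an intensity trend and robust spread, with no replicate block (12 independent arrays), without anti-EpCAM pairs 1 and 3, with the GAPDH ratio and with the ACTB ratio, the last chosen after seeing the data. Leaving out 1 pair gave 0 to 1. The array-wide count of 362 genes became 0 with the trend and 0 without pairing, 72 to 430 on leaving out 1 pair and 27 without anti-EpCAM pairs 1 and 3. The untreated count of 14 genes ranged from 0 to 16 and the treated count of 36 from 0 to 37. No member passed in the other 6 comparisons under any alternative run. This included the replicate block on the number in the antibody contrasts, which called 0 genes. Treated and untreated deviations correlated at 0.73 and 0.71 for number 1 and at 0.6 and 0.64 for number 3, in non-SP and SP cells. Those of number 2 correlated at -0.11 and -0.18, so numbers were not used as pairs across treatments. The mean of the 40 members stayed between -0.018 and 0.019. Of the 18 members followed gene by gene, MKI67, CCNA2, PLK1 and CDC25B, which were not called, changed sign in at least 1 alternative, and UBE2C did not. Over all 40 the count of estimates above 0, 25 as reported, ran from 18 to 27. The cause of these changes was not tested, and a fit that leaves out a pair also has fewer pairs. Signal over background limits dim probe sets, and no member was below the filter.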
